A study of Mus musculus with 8 samples.

Results

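The interferon regulatory factors are transcription factors that share a DNA-binding domain and bind interferon response elements. The 8 members described here, Irf1, Irf2, Irf3, Irf4, Irf5, Irf7, Irf8 and Irf9, were taken by gene symbol from a count table of 54837 genes. All 8 were among the 18851 genes with enough reads to be tested. The study sequenced RNA of splenic CD4 T cells from mice given tamoxifen on 5 consecutive days, in every group, as 8 sorted libraries. In GFPhi (n = 3) the sorted cells were GFP+ FoxP3+ and positive for TIM-3 and its FLAG tag, from mice that combine FSF-TIM-3 with Foxp3-eGFP-Cre-ERT2. GFPlow (n = 3) were GFP- FoxP3- cells, also TIM-3+ and FLAG+, of that same genotype. WT (n = 2) were GFP+ FoxP3+ cells, negative for TIM-3 and FLAG, from mice with Foxp3-eGFP-Cre-ERT2 and no transgene. Cre is made from the Foxp3 locus, so GFPlow are cells that carry the FLAG-tagged TIM-3 while sorted as negative for the gene that drives Cre. The comparison of GFPhi with GFPlow is within 1 genotype, that of GFPhi with WT is between genotypes in FoxP3+ cells, and that of GFPlow with WT changes both. The labels do not say whether libraries came from separate mice, so p-values measure only the spread between these libraries, part of which may be technical. Titles number the GFPhi and GFPlow libraries after a letter M, with the same numbers in both groups, without saying what M stands for. The main test does not pair them. Sex-linked transcripts, given below, differed within each group, so the libraries of a group did not all come from the same mouse.

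IRF3 and IRF7 are held in the cytoplasm until kinases downstream of nucleic acid sensors phosphorylate them, and they then switch on type I interferon genes. IRF9 is the DNA-binding part of the complex ISGF3, which answers those interferons, and IRF1 and IRF2 act on many of the same elements as activator and repressor. IRF4 and IRF8 bind DNA weakly alone and pair with BATF-JUN or ETS factors. IRF4 follows T cell receptor signal strength and is needed by effector regulatory T (Treg) cells, while IRF5 and IRF8 are best known from myeloid and B cells.

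Total counts ran from 44446215 to 55388756 per library. WT library 1 stood apart: 18599 genes had reads in it, against 21248 to 22185 in the other 7, and 6.54% of its reads were mitochondrial, against 2.35% to 2.78% in those 7. Havcr2, the gene of TIM-3, had 1520, 1080 and 1790 CPM (read counts scaled to library size with edgeR's TMM factors) in GFPhi, 260, 127 and 538 in GFPlow, and 0.876 and 0.172 in WT. Foxp3 had 60.2, 68.1 and 81.0 CPM in GFPhi, 2.45, 1.97 and 4.82 in GFPlow, and 41.7 and 63.2 in WT. Foxp3 followed the sort, and Havcr2 set both transgenic groups apart from WT. Although both were sorted as TIM-3+, Havcr2 was higher in every GFPhi than in every GFPlow library. Its log2 fold change was 2.25 ± 0.61 (SE; edgeR adjusted p 0.134). The 6 CD4 T cell markers were detected in all libraries, and all 6 Treg markers checked were past the threshold as higher in GFPhi than in GFPlow. Xist was at 237 CPM in GFPhi library 3, 184 CPM in GFPlow library 3 and 242 CPM in WT library 2, and at most 0.263 CPM elsewhere, while Y-linked Ddx3y was at 0 in those GFPhi and GFPlow libraries and at 6.16 CPM in WT library 2. Libraries thus differ in sex within each group, and WT library 2 holds both transcripts.

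The promoters of Irf4, Irf5 and Irf8 are shown because these were the members whose GFPhi libraries all lay above the GFPlow libraries, and those of Irf1 and Irf2 because they hold interferon elements. Sequences are from RefSeq (GRCm38.p6) and give the 250 bases before the transcription start, 5′ to 3′ on the plus strand, which is the strand of all 5 genes.
Irf4 chr13:30748983-30749232: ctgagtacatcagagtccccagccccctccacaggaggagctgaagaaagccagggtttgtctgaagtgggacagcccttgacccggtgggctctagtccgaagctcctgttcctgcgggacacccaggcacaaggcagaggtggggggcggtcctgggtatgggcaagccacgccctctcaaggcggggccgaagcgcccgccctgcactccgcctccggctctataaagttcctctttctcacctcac
Irf5 chr6:29526375-29526624: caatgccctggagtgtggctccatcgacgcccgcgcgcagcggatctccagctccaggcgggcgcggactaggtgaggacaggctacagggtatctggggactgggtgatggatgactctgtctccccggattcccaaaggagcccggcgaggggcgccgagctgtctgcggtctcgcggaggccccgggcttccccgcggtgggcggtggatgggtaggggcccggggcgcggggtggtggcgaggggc
Irf8 chr8:120736108-120736357: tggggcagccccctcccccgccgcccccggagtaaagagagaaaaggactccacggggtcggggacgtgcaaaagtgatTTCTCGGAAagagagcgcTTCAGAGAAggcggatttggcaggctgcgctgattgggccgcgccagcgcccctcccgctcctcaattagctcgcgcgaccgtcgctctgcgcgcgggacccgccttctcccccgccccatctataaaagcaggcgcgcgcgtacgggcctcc
Capitals mark matches, on either strand, to the STAT element GAS (TTCNNNGAA), the interferon-stimulated element ISRE (GAAANNGAAA), the ETS-IRF element EICE (GGAANNGAAA), AP-1 (TGANTCA) or NF-kappaB. The Irf4 and Irf5 windows hold none. The Irf8 window holds 2 GAS matches, the first 171 to 163 and the second 153 to 145 bases before the start. Irf1 holds a GAS match 90 to 82 bases before its start. In Irf2 an EICE match 247 to 238 bases before the start overlaps an ISRE match at 241 to 232, and a GAS match follows at 224 to 216. Those stretches of 40 bases read as follows.
Irf1 chr11:53769908-53769947: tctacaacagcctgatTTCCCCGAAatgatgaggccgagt
Irf2 chr8:46739495-46739534: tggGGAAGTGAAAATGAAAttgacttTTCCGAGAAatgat
Irf1 and Irf2 also hold an NF-kappaB match 13 to 4 and 17 to 8 bases before the start. Of 32851 mouse promoter windows of the same length, 7.02% hold GAS, 2.98% ISRE, 2.3% EICE, 6.75% AP-1 and 3.9% NF-kappaB. All 8 members matched the table with 11 windows, and the other 8 windows (Irf3, Irf4, Irf5, Irf7, Irf9 with 2, and second starts of Irf1 and Irf8) hold no match. A match describes letters only, and no binding was measured here. GC content was 63.6% for Irf4, 72.0% for Irf5 and 67.2% for Irf8, against a median of 52.4% over all windows.

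The comparison of GFPhi with GFPlow asks how TIM-3+ cells of 1 genotype differ with Foxp3. The level of Havcr2 differed along with Foxp3, and their parts cannot be told apart here. Irf5 rose, Irf4 and Irf8 were higher in every GFPhi library without passing the test, and the 5 other members overlapped between the groups. Irf5, Irf4 and Irf8 were also the least abundant members per exon length in both groups. In all, 1 of 8 members passed the threshold (adjusted p under 0.05 in edgeR's quasi-likelihood test with Benjamini-Hochberg adjustment over all genes tested), where 2.26% of the 18851 genes did. Libraries did not overlap for 3 of 8 members, against 30.0% of all genes. The members' median log2 fold change was 0.08, and that of all genes 0.01.

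Irf5 (ENSMUSG00000029771, GRCm38 chr6:29526625-29541871, plus strand), which acts downstream of MyD88-dependent Toll-like receptors in myeloid and B cells, had 20.6, 24.2 and 25.9 CPM in GFPhi. It had 9.90, 9.55 and 9.82 CPM in GFPlow, and 19.3 and 25.8 CPM in WT. The 3 GFPlow libraries were nearly equal and lay far below the 5 FoxP3+ libraries, which overlapped each other. In edgeR's quasi-likelihood test Irf5 was higher in GFPhi than in GFPlow by 1.27 ± 0.20 on the log2 scale (SE), 2.42-fold, with an adjusted p of 0.0177, in 3 of 3 libraries against 3. Leaving out any 1 of the GFPhi or GFPlow libraries kept the log2 fold change between 1.20 and 1.36 and gave adjusted p from 0.0671 to 0.0971. Leaving out WT library 1 or WT library 2, which also enter the spread, gave 0.00128 and 0.00118.

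Irf5 shares 411 exon bases with Tnpo3 on the opposite strand, and the strand setting of the counting is not given in the sources used here. Tnpo3, a nuclear import receptor, was at 89.2, 72.8 and 90.6 CPM in GFPhi, against 86.8, 91.5 and 91.3 CPM in GFPlow, a log2 fold change of -0.09 ± 0.27 (SE; edgeR adjusted p 1.0). The levels of Tnpo3 overlapped between the groups, and the part of its reads in the Irf5 counts was not tested.

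Irf4 (ENSMUSG00000021356, chr13:30749226-30766976, plus strand) had 38.6, 14.2 and 27.4 CPM in GFPhi, 6.01, 9.98 and 8.39 CPM in GFPlow, and 13.8 and 25.2 CPM in WT. All GFPlow libraries were below all others, but GFPhi itself spread widely, and its library 2 lay close to GFPlow. The log2 fold change of GFPhi over GFPlow was 1.72 ± 0.42 (SE), 3.29-fold, with an adjusted p of 0.093 in edgeR's quasi-likelihood test. No exon of another gene overlaps Irf4.

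Irf8 (ENSMUSG00000041515, chr8:120736358-120756694, plus strand), a lineage factor of monocytes and dendritic cells that activated T cells can also express, had 61.1, 39.4 and 39.3 CPM in GFPhi. It had 14.8, 17.8 and 16.4 CPM in GFPlow, and 8.79 and 36.9 CPM in WT. GFPhi was above every GFPlow library, and the WT libraries lay on either side of GFPlow. GFPhi was higher than GFPlow by 1.51 ± 0.47 on the log2 scale (SE), 2.85-fold, with an edgeR adjusted p of 0.194.

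Irf4 and Irf8 passed under some of the other settings. With the 6 GFPhi and GFPlow libraries alone, edgeR's adjusted p was 0.0201 for Irf4 and 0.0024 for Irf8, with 12.3% of genes past the threshold. Without WT library 1 it was 0.0236 and 0.00264, and without WT library 2 it was 0.0222 and 0.00254. DESeq2 on all libraries gave 0.00197 and 0.0259, with 7.29% of genes past the threshold. Limma voom with quality weights gave 0.0261 and 0.00129, with 12.0%. The log2 fold change stayed between 1.55 and 1.72 for Irf4 and 1.46 and 1.51 for Irf8 in these fits. In edgeR's test neither passed without any 1 of the GFPhi or GFPlow libraries. Irf4 then lay between 1.35 and 2.02 (adjusted p 0.074 to 0.329) and Irf8 between 1.27 and 1.62 (0.336 to 0.55). The replicate block on all libraries gave adjusted p of 0.267 and 0.337. On the GFPhi and GFPlow libraries alone, edgeR with the block gave 1.63 for Irf4 (adjusted p 0.0625) and 1.48 for Irf8 (0.0089), with 10.3% of genes past the threshold. With no filter on low counts, edgeR's adjusted p was 0.0475 for Irf4 and 0.176 for Irf8, with 1.75% of genes past it.

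**Figure D1:**
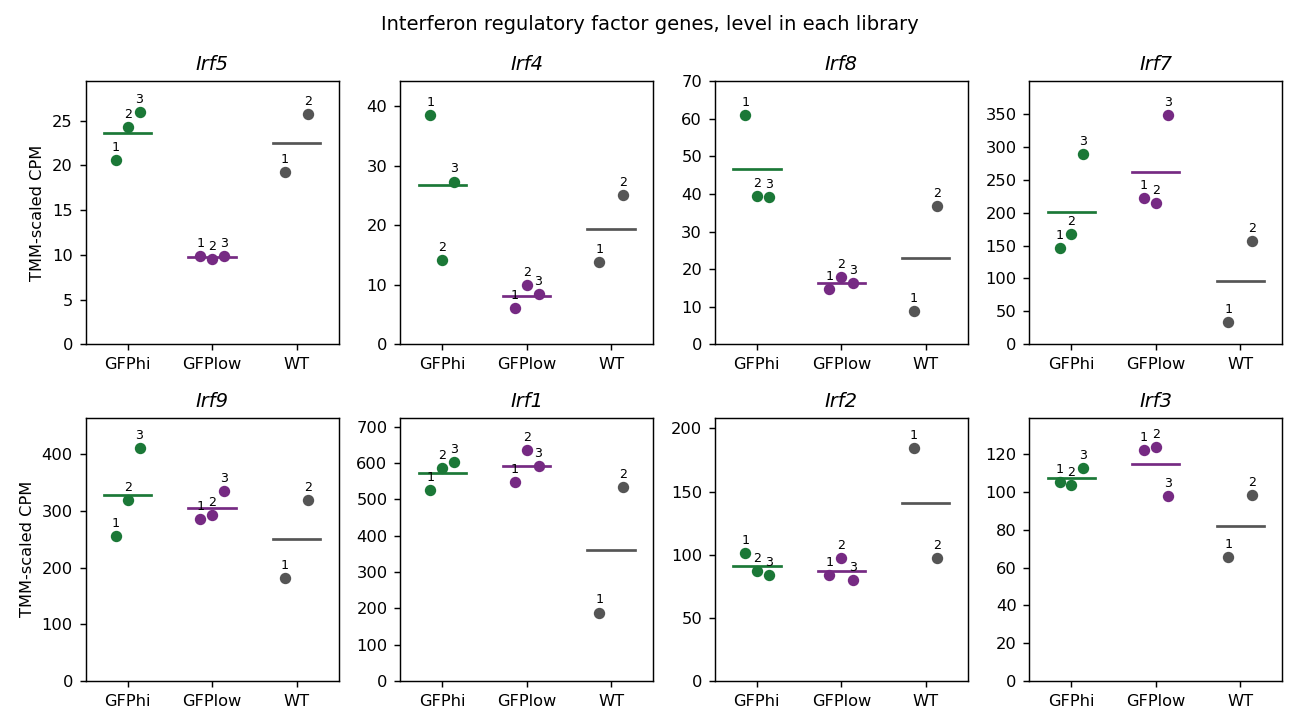
TMM-scaled CPM (y axis, own scale in each panel) of the 8 members in GFPhi, GFPlow and WT; points are libraries with their numbers and lines are group means. Irf5, Irf4 and Irf8 were higher in all 3 GFPhi libraries than in all 3 GFPlow libraries, while WT library 1 was lowest of 8 for Irf1, Irf3, Irf7, Irf8 and Irf9 and highest for Irf2.

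Irf7 (ENSMUSG00000025498, chr7:141262706-141266481, minus strand), itself an interferon-stimulated gene that amplifies type I interferon, had 146, 167 and 290 CPM in GFPhi, 222, 214 and 348 CPM in GFPlow, and 34.1 and 157 CPM in WT. Library 3 was the highest of its group in GFPhi and in GFPlow, and the groups overlapped, with a log2 fold change of -0.38 ± 0.53 (SE; edgeR adjusted p 1.0). Each GFPhi library was below the GFPlow library of the same number. With a replicate block on the GFPhi and GFPlow libraries alone, edgeR gave -0.41 ± 0.08 (adjusted p 0.0301, with 10.3% of genes past the threshold). The block on all libraries gave -0.43 ± 0.44 (adjusted p 0.994). The 22 ISGF3 and IRF7 target genes summed to 2428 CPM in GFPhi library 3 and 2457 CPM in GFPlow library 3, against 1407 to 1666 CPM in the other 4 libraries of these groups. Those libraries numbered 3 are also the ones with Xist and no Ddx3y. In WT the target genes summed to 2649 CPM in library 1, which lacks Xist, and 1677 CPM in library 2, which has it. The part of sex in these levels was not tested.

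Irf9 (ENSMUSG00000002325, chr14:55603571-55610030, plus strand) had 255, 319 and 411 CPM in GFPhi, 286, 293 and 335 CPM in GFPlow, and 182 and 319 CPM in WT. GFPhi spanned the whole GFPlow range, with a log2 fold change of 0.11 ± 0.26 (SE; edgeR adjusted p 1.0). It shares 123 exon bases with Rnf31 on the same strand. On the opposite strand Irf1 shares 135 exon bases with Gm17334, Irf3 shares 88 with Bcl2l12 and Irf7 shares 45 with Phrf1. The part of reads from these genes in the member counts was not tested.

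Irf3 (ENSMUSG00000003184, chr7:44997648-45002848, plus strand), which is made constitutively in most cells, had 105, 104 and 113 CPM in GFPhi, 122, 124 and 98.1 CPM in GFPlow, and 65.7 and 98.5 CPM in WT. The log2 fold change of GFPhi over GFPlow was -0.10 ± 0.20 (SE), and the groups overlapped. Irf1 (ENSMUSG00000018899, chr11:53770014-53778374, plus strand) had 525, 587 and 603 CPM in GFPhi, 547, 636 and 593 CPM in GFPlow, and 188 and 533 CPM in WT, and its log2 fold change was -0.05 ± 0.34 (SE). Apart from WT library 1, these 2 genes stayed within narrow ranges in all libraries. Irf2 (ENSMUSG00000031627, chr8:46739732-46847458, plus strand) had 101, 87.3 and 83.6 CPM in GFPhi, 83.9, 97.6 and 80.2 CPM in GFPlow, and 184 and 97.6 CPM in WT. Its log2 fold change was 0.06 ± 0.24 (SE), and WT library 1 stood above all others, which lay between 80.2 and 101 CPM. The edgeR adjusted p of all 3 genes was 1.0, which does not show that they were equal.

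The comparison of GFPlow with WT sets FoxP3- transgenic cells against FoxP3+ cells without the transgene. Irf5 fell and was the only 1 of 8 members past the threshold, where 3.3% of the 18851 genes passed in either direction. Libraries did not overlap for 4 of 8 members, with Irf1 and Irf7 higher and Irf4 and Irf5 lower in GFPlow, against 40.3% of all genes. The members' median log2 fold change was -0.1, against 0.02 for all genes.

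Irf5 was lower in GFPlow by -1.21 ± 0.22 on the log2 scale (SE), or 0.433 of the WT level, with an adjusted p of 0.0274 in edgeR's quasi-likelihood test. Without any 1 of the GFPhi or GFPlow libraries the adjusted p was 0.0596 to 0.114. Without WT library 1 the log2 fold change was -1.40 (adjusted p 0.00444), and without WT library 2 it was -0.96 (adjusted p 0.00326). The fit on the 5 libraries compared gave -1.21 with an adjusted p of 0.17, and limma voom with quality weights -1.27 with 0.448. The direction held in all of these fits.

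Irf4 in GFPlow was below both WT libraries, with a log2 fold change of -1.26 ± 0.45 (SE; edgeR adjusted p 0.141). DESeq2 gave Irf4 an adjusted p of 0.0458 with a log2 fold change of -1.27. For Irf7 the fold change was 1.45 ± 0.62 (adjusted p 0.192), for Irf1 0.71 ± 0.39 (0.277), for Irf3 0.48 ± 0.22 (0.218), for Irf9 0.28 ± 0.30 (0.557) and for Irf2 -0.69 ± 0.27 (0.166), each on the log2 scale with its SE. None of these 6 members passed in edgeR's test on all libraries.

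WT library 1 decided several of these values. Irf8 differed from WT by -0.49 ± 0.51 on the log2 scale (SE; edgeR adjusted p 0.555) with both WT libraries. It was lower in GFPlow by -1.17 (adjusted p 0.0358) without WT library 1 and higher by 0.92 (adjusted p 0.0336) without WT library 2, so its direction depends on which WT library is used. Without WT library 1, Irf1 was at 0.16, Irf7 at 0.74 and Irf2 at -0.16, and Irf5 and Irf8 passed, with 5.88% of genes past the threshold. With WT library 1 as the only WT library, 7 members passed along with 43.9% of all genes tested.

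The comparison of GFPhi with WT sets TIM-3+ FoxP3+ cells against FoxP3+ cells without the transgene. No member and no gene passed (0.0% of 18851). At an unadjusted p under 0.05 there were 2588 genes (13.7%), among them 1 member, Irf2 (log2 fold change -0.64 ± 0.27, SE; edgeR adjusted p 0.362). DESeq2 called 320 genes and no member, giving no adjusted p to Irf2, Irf3, Irf4, Irf5 or Irf8, and limma voom called 0 genes. Libraries did not overlap for 2 of 8 members, Irf3 and Irf8, both higher in GFPhi, against 28.1% of all genes.

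With both WT libraries Irf5 was the closest member between these FoxP3+ groups, at 0.07 ± 0.22 on the log2 scale (SE; edgeR adjusted p 0.89). Irf8 was at 1.02 ± 0.53 (adjusted p 0.393), but GFPhi libraries 2 and 3, at 39.4 and 39.3 CPM, lay just above WT library 2, at 36.9 CPM. The others were Irf7 at 1.07 ± 0.61 (0.421), Irf1 at 0.66 ± 0.39 (0.429), Irf4 at 0.46 ± 0.46 (0.606), Irf3 at 0.39 ± 0.22 (0.423) and Irf9 at 0.39 ± 0.30 (0.503). Without WT library 1 all 8 members lay between -0.13 (Irf5) and 0.35 (Irf7), and Irf9, at 0.04, was the closest. With WT library 1 alone, 6 members passed along with 40.1% of genes. The comparisons of GFPhi and of GFPlow with WT share the WT libraries, and the 2 comparisons of GFPlow share the GFPlow libraries, so these values are not independent.

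**Figure D2:**
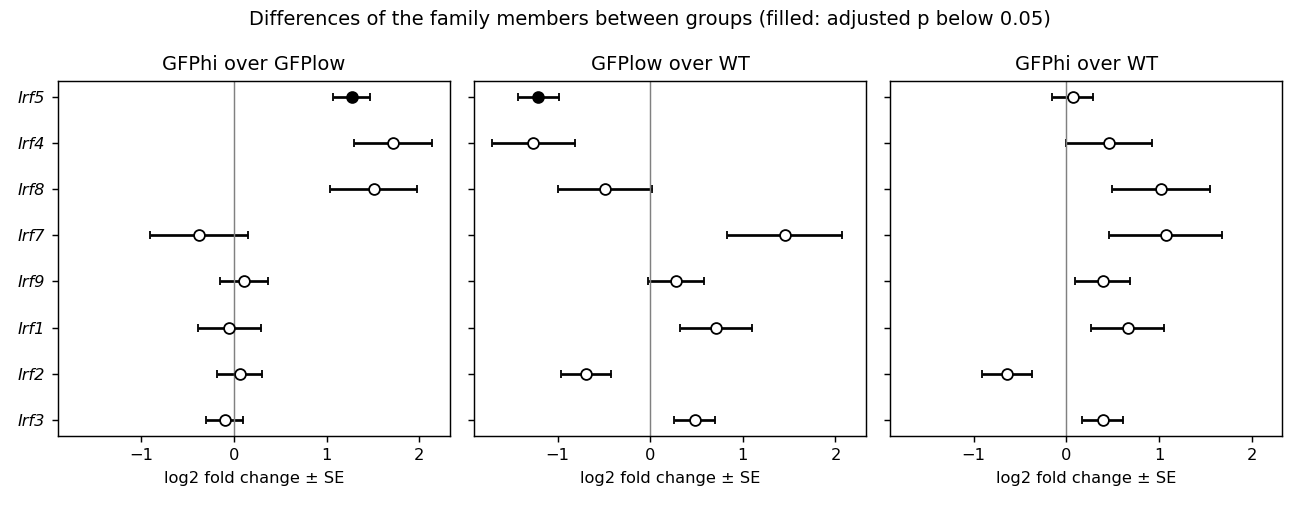
Log2 fold change with SE (x axis) of each member in GFPhi over GFPlow, GFPlow over WT and GFPhi over WT, from 1 edgeR model of all 8 libraries; filled points have an adjusted p below 0.05. Irf5 is filled at 1.27 in GFPhi over GFPlow and at -1.21 in GFPlow over WT, and lies at 0.07 in GFPhi over WT.

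Levels of different members were compared as CPM per kilobase of merged exons (GENCODE vM21). In GFPhi the order was Irf1 at a mean of 144, Irf9 at 61.0, Irf7 at 53.2, Irf3 at 31.2, Irf2 at 12.3, Irf5 at 8.13, Irf8 at 6.61 and Irf4 at 5.45 CPM per kb. The ranges of Irf9 and Irf7 overlapped, as did those of Irf5 with Irf8 and of Irf8 with Irf4. In GFPlow it was Irf1 at 149, Irf7 at 69.2, Irf9 at 56.6, Irf3 at 33.3, Irf2 at 11.8, Irf5 at 3.36, Irf8 at 2.32 and Irf4 at 1.66 CPM per kb, with overlap between Irf7 and Irf9 only. Irf1 thus stood first and the lymphoid and myeloid factors Irf5, Irf8 and Irf4 last in both.

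In WT the ranges of the first 5 members overlapped from neighbour to neighbour, from Irf1 at 90.7 through Irf9 at 46.5, Irf7 at 25.3 and Irf3 at 23.9 to Irf2 at 19.1 CPM per kb. Irf5 at 7.75, Irf4 at 3.97 and Irf8 at 3.24 CPM per kb followed, the last 2 overlapping. As a share of the summed CPM per kb of the 8 members, Irf1 made 41.1% to 47.6% in GFPhi libraries, 42.6% to 48.8% in GFPlow and 32.7% to 45.3% in WT. Irf5 made 2.42% to 2.69% in GFPhi, 0.966% to 1.12% in GFPlow and 3.0% to 4.58% in WT. Irf4 made 0.933% to 2.76% in GFPhi, 0.405% to 0.62% in GFPlow and 1.73% to 1.94% in WT. Irf8 made 1.51% to 3.03% in GFPhi, 0.663% to 0.769% in GFPlow and 0.86% to 1.77% in WT. The shares of all 3 were lowest in GFPlow with no overlap with either other group. The shares of WT library 1 are of a smaller total, 144.9 CPM per kb against 285.9 to 368.8 in the other libraries. The level of Irf8 itself was 1.25 CPM per kb in WT library 1, below the 2.1 to 2.52 of GFPlow.

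**Figure D3:**
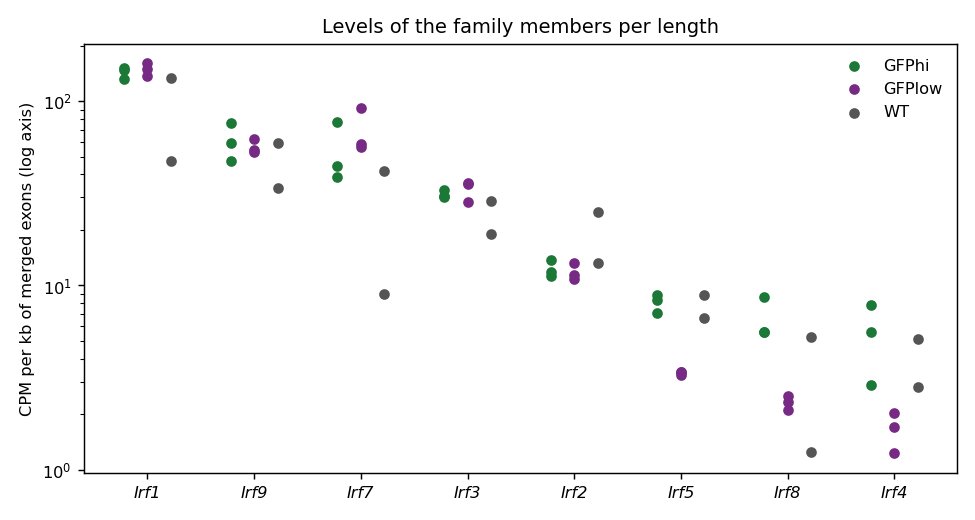
CPM per kb of merged exons (y axis, log scale) of each member, with 1 point per library of GFPhi, GFPlow and WT. Irf1 is highest at a mean of 144 in GFPhi and 149 in GFPlow; the GFPlow points of Irf5, Irf8 and Irf4 sit below the GFPhi points.

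The genes whose log2 CPM was most like that of Irf5 over the 8 libraries, among 8874 compared, were 2010111I01Rik (Pearson r 0.996), Cd200r1 (0.994) and Capg (0.99). The libraries fall into 3 sorted groups and share that division, so r is a description. 2010111I01Rik averaged 217 CPM in GFPhi, 125 CPM in GFPlow and 211 CPM in WT. Cd200r1, an inhibitory receptor for CD200, averaged 70.0 CPM in GFPhi, 42.1 CPM in GFPlow and 68.2 CPM in WT. Capg, an actin-capping protein, averaged 559 CPM in GFPhi, 168 CPM in GFPlow and 477 CPM in WT. Because these genes were picked for their likeness to Irf5, they too were low in GFPlow and alike in the FoxP3+ groups.

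The pathway around the family was described with 8 gene lists, each set beside the median log2 fold change of all genes (0.01 in GFPhi over GFPlow, 0.02 in GFPlow over WT, 0.08 in GFPhi over WT). In GFPhi over GFPlow, 9 of 123 tested listed genes rose and 1 fell, where 1.63% of all genes rose and 0.626% fell, and 6 of those that rose came from the list of genes known to depend on IRF4. In GFPlow over WT 9 of 123 fell and none rose, where 2.23% of all genes fell and 1.08% rose, and in GFPhi over WT none passed in any list.

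Of 21 tested sensors, adaptors and kinases upstream of IRF3, IRF5 and IRF7, Tank rose in GFPhi over GFPlow (list median 0.16) and fell in GFPlow over WT (list median 0.26). Tank, a scaffold of the TBK1 and IKK-epsilon kinases, averaged 325 ± 9.31 CPM in GFPhi and 159 ± 19.5 CPM in GFPlow (SD, n = 3 each), and was at 446 and 343 CPM in WT. Its log2 fold change was 1.03 ± 0.18 for GFPhi over GFPlow (SE; edgeR adjusted p 0.0259) and -1.31 ± 0.20 for GFPlow over WT (adjusted p 0.0127). The count of 1 in the list was 0 in GFPhi over GFPlow without any 1 of the GFPhi or GFPlow libraries, and with the replicate block on all libraries. It was 2 with DESeq2, 4 with voom and 5 with the GFPhi and GFPlow libraries alone, where 7.29%, 12.0% and 12.3% of all genes passed. In GFPlow over WT it was 0 without any 1 of the GFPlow libraries. Tlr7, the single-stranded RNA receptor upstream of IRF5 and IRF7, had 15.0, 23.2 and 36.2 CPM in GFPhi and 2.04, 4.94 and 13.0 CPM in GFPlow, and was at 18.7 and 21.4 CPM in WT. GFPlow lay below both FoxP3+ groups, which overlapped, but Tlr7 did not pass (1.9 ± 0.63 for GFPhi over GFPlow, SE; edgeR adjusted p 0.237). Myd88, the adaptor between Toll-like receptors and IRF5, was at -0.32 ± 0.30 (adjusted p 0.918), and Ddx58, the gene of RIG-I, at -0.39 ± 0.25 (adjusted p 0.737).

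None of the 9 interferon receptors, JAK and STAT factors passed in any comparison in edgeR's test on all libraries (medians 0.19, 0.22 and 0.26). In GFPhi over GFPlow 0 passed with DESeq2, 1 with voom and 1 with the GFPhi and GFPlow libraries alone. In those fits 7.29%, 12.0% and 12.3% of all genes passed. Jak1, a kinase of the interferon receptors, was at 745 ± 21.3 CPM in GFPhi and 922 ± 24.3 CPM in GFPlow (SD, n = 3 each), and at 538 and 716 CPM in WT, with a log2 fold change of -0.31 ± 0.18 for GFPhi over GFPlow (SE; edgeR adjusted p 0.653). Of 5 interferon genes only Ifng had enough reads to be tested, at 8.61 ± 4.18 CPM in GFPhi and 9.73 ± 3.16 CPM in GFPlow (SD, n = 3 each), and 20.9 and 3.83 CPM in WT, with all groups overlapping. Of 22 ISGF3 and IRF7 target genes, 1 passed in GFPhi over GFPlow with DESeq2, 3 with voom and 0 with the GFPhi and GFPlow libraries alone. None passed in edgeR's test on all libraries (medians -0.03, 0.29 and 0.04). The nearest was Oas2, an antiviral 2′-5′ oligoadenylate synthetase, with 6.81, 4.01 and 19.4 CPM in GFPhi, 36.2, 28.7 and 52.9 CPM in GFPlow, and 4.28 and 6.07 CPM in WT. It was lower in every GFPhi than in every GFPlow library, with a log2 fold change of -1.96 ± 0.56 (SE; edgeR adjusted p 0.155), and 2.92 ± 0.69 in GFPlow over WT (adjusted p 0.0659).

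Of 23 tested IRF1 and interferon-gamma target genes, Gbp3 rose in GFPhi over GFPlow (list median 0.12), and Gbp3 and Cxcl10 fell in GFPlow over WT (list median -0.36). Gbp3, a guanylate-binding GTPase of cell-autonomous defence, averaged 108 ± 11.7 CPM in GFPhi and 31.4 ± 4.21 CPM in GFPlow (SD, n = 3 each), and 103 CPM in each WT library. Its log2 fold change was 1.78 ± 0.17 for GFPhi over GFPlow (SE; edgeR adjusted p 0.003) and -1.71 ± 0.19 for GFPlow over WT (adjusted p 0.00432). Cxcl10, a chemokine for CXCR3+ cells, had 41.4, 37.7 and 18.7 CPM in GFPhi, 7.25, 7.13 and 7.11 CPM in GFPlow, and 85.1 and 20.6 CPM in WT. Its log2 fold change was -2.88 ± 0.56 for GFPlow over WT (SE; edgeR adjusted p 0.0337) and 2.19 ± 0.52 for GFPhi over GFPlow (adjusted p 0.0861). Iigp1, an immunity-related GTPase, was at 1.01 ± 0.22 in GFPhi over GFPlow (adjusted p 0.0588). The other 21 tested genes of the list passed in none of the comparisons in edgeR's test on all libraries. The list count in GFPhi over GFPlow was 3 with DESeq2, 8 with voom and 7 with the GFPhi and GFPlow libraries alone. In those fits 7.29%, 12.0% and 12.3% of all genes passed. Without any 1 of the GFPhi or GFPlow libraries, the count of 1 in GFPhi over GFPlow stayed, and that of 2 in GFPlow over WT was 1.

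Of 14 tested DNA-binding partners of IRF4 and IRF8, Ikzf1 fell in GFPhi over GFPlow (list median 0.05) and Batf fell in GFPlow over WT (list median 0.76). Ikzf1, the gene of Ikaros, averaged 97.6 ± 6.17 CPM in GFPhi and 197 ± 15.9 CPM in GFPlow (SD, n = 3 each), and was at 153 and 98.8 CPM in WT (-1.01 ± 0.20 for GFPhi over GFPlow, SE; edgeR adjusted p 0.0405). Batf, which with JUN forms the partner of IRF4 on composite elements, averaged 198 ± 23.9 CPM in GFPhi and 124 ± 13.2 CPM in GFPlow (SD, n = 3 each), and was at 335 and 215 CPM in WT. Its log2 fold change was -1.15 ± 0.23 for GFPlow over WT (SE; edgeR adjusted p 0.0397) and 0.67 ± 0.21 for GFPhi over GFPlow (adjusted p 0.206). The count of 1 in the list was 0 in both comparisons without any 1 of the GFPhi or GFPlow libraries, and 0 in GFPhi over GFPlow with upper-quartile scaling.

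Of 20 genes known to depend on IRF4 in effector T and Treg cells, 6 rose in GFPhi over GFPlow, where 1.63% of all genes rose (Ccr8, Ctla4, Ebi3, Il1rl1, Klrg1 and Tnfrsf18; list median 0.81) and 4 fell in GFPlow over WT, where 2.23% of all genes fell (Ccr8, Ctla4, Ebi3 and Tnfrsf18; list median -1.16). Ctla4, an inhibitory receptor of Treg cells, averaged 407 ± 26.0 CPM in GFPhi and 57.0 ± 7.52 CPM in GFPlow (SD, n = 3 each), and was at 303 and 389 CPM in WT (2.83 ± 0.19 for GFPhi over GFPlow, SE; edgeR adjusted p 0.00127). Ccr8, a chemokine receptor of effector Treg cells, was at 3.09 ± 0.37 (adjusted p 0.00617), Ebi3, a subunit of interleukin-27 and interleukin-35, at 2.91 ± 0.40 (0.0105), and Tnfrsf18, the gene of GITR, at 1.73 ± 0.25 (0.0119). Ctla4 and Tnfrsf18 are also in the list of Treg markers, and the groups were sorted on FoxP3, so the direction of these genes is not separate from the gate. The count of 6 was 2 without GFPhi library 1 or 2, and 3 without any 1 of the other GFPhi and GFPlow libraries. In those fits 0.565% to 0.955% of all genes passed in either direction. The count of 4 was 3 without GFPlow library 1, where 1.15% of all genes passed in either direction.

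Of 14 protein regulators of IRF factors, Swap70 rose in GFPhi over GFPlow and fell in GFPlow over WT (list medians 0.05 and 0.15). Swap70, whose product is related to the IRF4-binding protein DEF6, averaged 78.2 ± 5.10 CPM in GFPhi and 9.57 ± 2.64 CPM in GFPlow (SD, n = 3 each), and was at 54.5 and 81.7 CPM in WT. Its log2 fold change was 3.03 ± 0.27 for GFPhi over GFPlow (SE; edgeR adjusted p 0.00223) and -2.83 ± 0.28 for GFPlow over WT (adjusted p 0.00371). Def6 was at -0.13 ± 0.35 in GFPhi over GFPlow (adjusted p 1.0), with groups that overlapped.

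**Figure D4:**
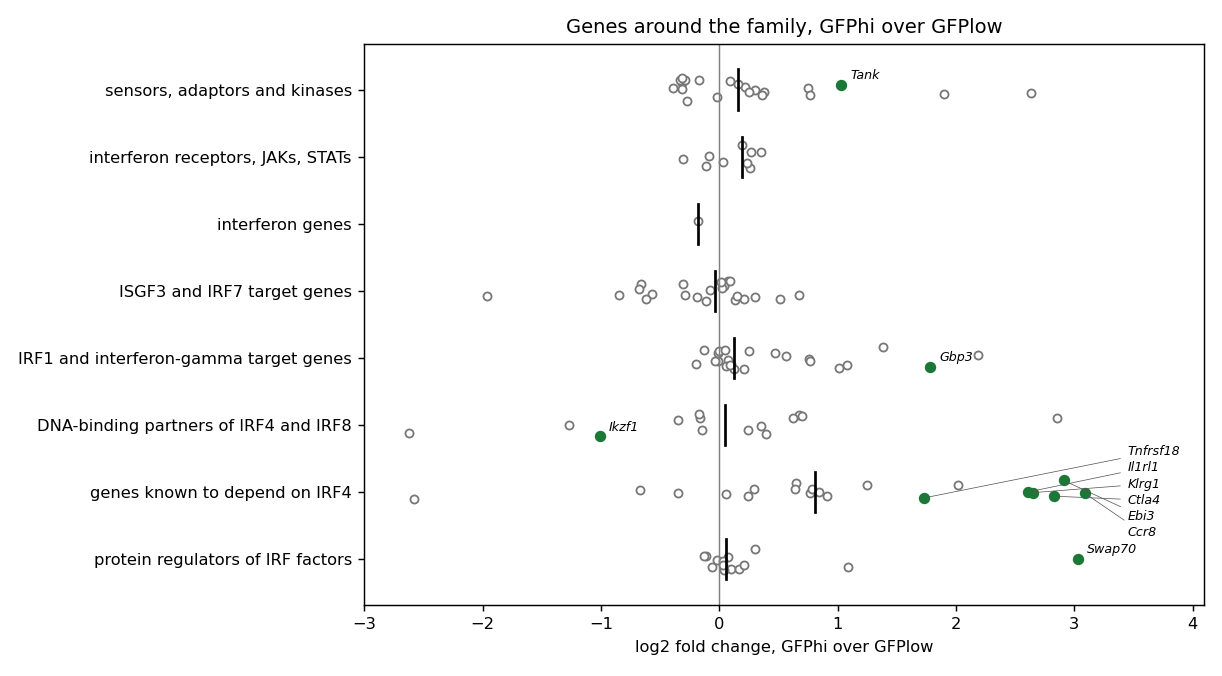
Log2 fold change of GFPhi over GFPlow (x axis) for each tested gene of the 8 lists; filled points have an adjusted p below 0.05 and are named, and vertical bars are list medians. The list of genes known to depend on IRF4 has a median of 0.81 and 6 filled points, while the ISGF3 and IRF7 targets are centred at -0.03 with none.

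Irf4, Irf5 and Irf8 are also expressed by B cells, plasma cells and myeloid cells, so markers of those cells were summed per library. In these bulk libraries fewer cells of a type and less RNA per cell cannot be told apart. The 9 B cell markers summed to 54.01, 50.42 and 46.51 CPM in GFPhi, 8.35, 13.25 and 16.95 CPM in GFPlow, and 75.83 and 56.43 CPM in WT, lowest in GFPlow as Irf5 was. Nearly all of it was Cd79b, at 50.1, 44.5 and 43.2 CPM in GFPhi, 3.62, 3.03 and 11.2 CPM in GFPlow, and 70.4 and 50.6 CPM in WT, and Cd79b passed in both comparisons of GFPlow (edgeR adjusted p 0.0238 and 0.0161). Of the others, Pax5 was at 0 in GFPhi and WT and at 0.635, 1.58 and 0.0194 CPM in GFPlow, and Ms4a1 at most 0.828 CPM. Cd79a averaged 1.88 CPM in GFPhi, 1.58 CPM in GFPlow and 2.51 CPM in WT. Cd22 averaged 2.46 CPM in GFPhi, 4.43 CPM in GFPlow and 2.58 CPM in WT.

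The 5 plasma cell markers summed to 158.9, 168 and 190.2 CPM in GFPhi, 111.7, 135.2 and 117.7 CPM in GFPlow, and 79.62 and 184.8 CPM in WT. Nearly all of it was Xbp1, except in GFPlow library 2, where Xbp1 was at 111 CPM and Jchain at 23.5 CPM. Tnfrsf17 was at 0 in all libraries. The 9 monocyte and macrophage markers summed to 2.775, 1.637 and 41.69 CPM in GFPhi, 24.27, 4.49 and 256.1 CPM in GFPlow, and 10.12 and 45.02 CPM in WT. This sum was highest in GFPlow library 3. The 7 conventional dendritic cell markers summed to 130.4 to 151.1 CPM in GFPhi, 106.8 to 141.5 CPM in GFPlow, and 495.8 and 142.2 CPM in WT, mostly Cst3. The 6 plasmacytoid markers summed to 17.54 to 31.35 CPM in GFPhi, 19.87 to 25.2 CPM in GFPlow, and 11.39 and 19.07 CPM in WT, with Siglech and Klk1 at 0 in all libraries. The 6 NK cell markers summed to 2.205 to 6.299 CPM in GFPhi, 19.91 to 54.45 CPM in GFPlow, and 6.294 and 1.845 CPM in WT. The part of other cells in the member levels was not tested.

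**Figure D5:**
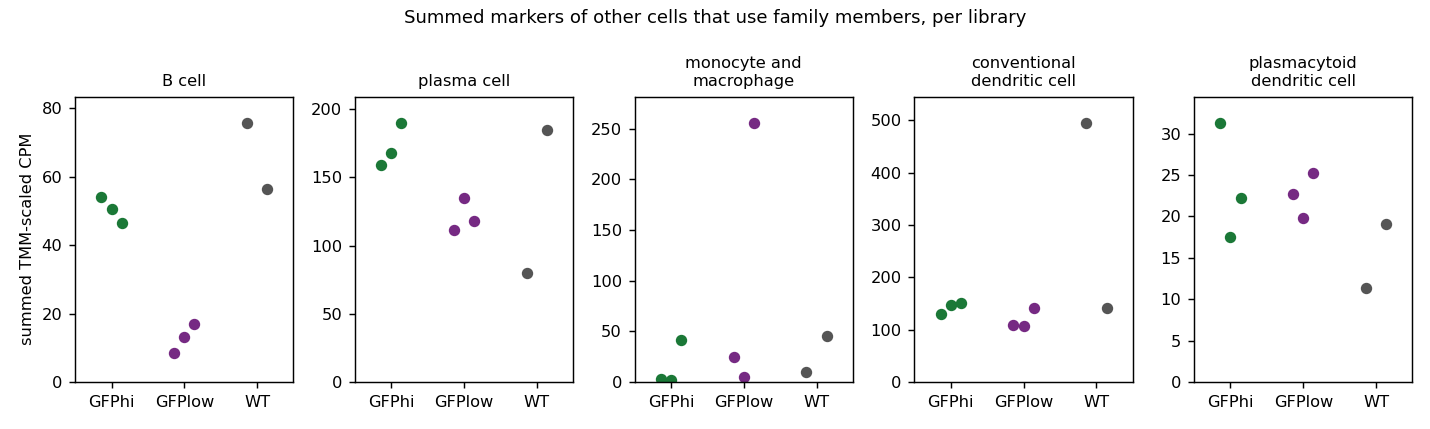
Summed TMM-scaled CPM (y axis, own scale in each panel) of markers of 5 other cell types, with 1 point per library of GFPhi, GFPlow and WT. The B cell sum, mostly Cd79b in GFPhi and WT, is 46.51 to 54.01 in GFPhi and 8.35 to 16.95 in GFPlow, and the monocyte and macrophage sum reaches 256.1 in GFPlow library 3.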

How the data were processed

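The authors deposited 1 table of read counts per Ensembl gene, not normalized. The submitters' processing notes name build GRCm38, R 4.0, edgeR, HTSeq 0.11.2, SAMtools 1.9 and HISAT2 2.1.0. Not given in the sources used here were their roles, the annotation, filters and strand setting, so overlapping genes cannot be told apart. Libraries were made with SMART-Seq HT and Nextera XT kits, per the labels' protocols. Of 54837 identifiers 54808 were matched to GENCODE vM21. Reads carry no molecular identifiers.

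From the counts, edgeR 4.0.16 (R 4.3.3; filterByExpr, TMM scaling, robust quasi-likelihood fit) fitted 1 mean per group to all 8 libraries, with 5 residual degrees of freedom. Each comparison was tested two-sided with Benjamini-Hochberg adjustment over 18851 genes at 0.05; SE is the log2 fold change over the square root of F. Alternatives were other scalings, filters, DESeq2 1.42.0, limma 3.58.1 voom, no robust estimation, a replicate block, fewer libraries, and each library left out. The model was tested on simulated data.

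The members and lists were chosen with earlier results of these data known. All members are named in every comparison, of each pathway list up to 3 genes with the smallest adjusted p in the comparisons of GFPhi with GFPlow and of GFPlow with WT (and the IRF4-dependent genes that passed), and for Irf5 the 3 most correlated genes with mean log2 CPM above 3. Of the marker lists, genes were named that make up much of a sum in some library, or that are low or at 0. Replicate numbers were not used to pair samples in the main model, because the labels do not say that equal numbers mark the same mouse. One family gene that the choice of members counts, and some other listed genes, are not reported here. Tables and plots were made with matplotlib 3.10.9, pandas 2.3.3 and Python 3.11.15.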

Additional observations from a re-analysis of the deposited data

How the results depend on the processing

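Of 432 values of a member under an alternative setting, 377 kept their direction and side of the threshold, 26 passed and 17 no longer passed, and 12 changed sign. Members past the threshold in GFPhi over GFPlow (1 of 8, with 426 genes) numbered 2 with no filter (504 genes), 3 with DESeq2 (1375), voom (2271), the 6 libraries compared (2105) and those with the replicate block (1752; Irf5, Irf8 and Irf7 at -0.41 with adjusted p 0.0301, Irf4 at 0.0625), and 0 with the replicate block on all libraries (182; Irf5 adjusted p 0.0794). With 1 library left out they numbered 0 to 3, with 105 to 1984 genes. In GFPlow over WT (1 of 8, 623 genes) the count was 2 with DESeq2 (3243), and 0 with voom (72), the libraries compared (33), those with the block (217) and the block (158; Irf5 adjusted p 0.122), and 0 to 7 with 1 library left out (213 to 9002 genes). In GFPhi over WT (0 and 0 genes) no member passed with no filter (1 gene), DESeq2 (320) or the libraries compared with the block (22), and 0 to 6 passed with 1 library left out (0 to 8234 genes), the highest values without WT library 2. Same-numbered GFPhi and GFPlow libraries deviated together with r of 0.0671, 0.0662 and 0.149, other pairs at -0.112 to 0.0517; each correlated best with its own number, a hint from the data only.

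Log2 fold changes that changed sign in GFPhi over GFPlow were those of Irf1 (0.01 without GFPhi library 1, 0.0036 without GFPlow library 2; -0.11 to 0.01 over all libraries left out), Irf2 (-0.03 without GFPhi library 1, -0.002 without GFPlow library 3; -0.03 to 0.14) and Irf9 (-0.09 without GFPhi library 3; -0.09 to 0.26). In GFPlow over WT they changed for Irf8 (0.92 without WT library 2, -1.17 without WT library 1) and Irf9 (-0.06 without WT library 1, 0.77 without WT library 2). In GFPhi over WT Irf5 was at -0.06 with upper-quartile scaling, -0.02 with the filter of 5 CPM, -0.00056 with the libraries compared and the block, -0.01 without GFPhi library 3 and -0.13 without WT library 1 (0.32 without WT library 2). Upper-quartile scaling moved the median of all genes in GFPlow over WT to -0.12, against 0.02. The cause of these changes was not tested. With 1 WT library, its spread is assumed to equal that of the other groups.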
